A study of Mus musculus with 5 samples.

Results

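The genes described here mark lymphocytes, the T cells, natural killer (NK) cells and B cells of adaptive and innate immunity, in whole mouse heart grafts. They are a named set of 36 genes, each represented by its brightest Affymetrix probe set among those annotated with that gene alone, and 35 of the 36 were measured, each by 1 probe set, of 19938 genes and 21789 such probe sets on the arrays. Lck, the kinase that starts T cell receptor signalling, was not measured under this rule. Hearts of C57BL/6 mice, 8 weeks old, were transplanted into the abdomen of C57BL/6 recipients, so that donor and host were syngeneic. The I/R grafts (2553, 2555 and 2557, n = 3) had been kept in University of Wisconsin solution at 4 °C for 18 h before implantation, and the non-I/R grafts (2554 and 2556, n = 2) were implanted without that storage. Both groups therefore went through surgery and reperfusion, and the comparison is of cold storage added to transplantation. The labels give harvest 24 h after transplantation and the study's text gives day 2. The treatment field of the labels describes the cold storage for all 5 grafts, and the groups were taken from the source and tissue fields, which differ.

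T cells recognise antigen through the T cell receptor, which signals through the CD3 chains and the zeta chain. NK cells and cytotoxic T cells kill through perforin and granzymes, and B cells signal through CD79a and CD79b and later give rise to antibody-forming cells. In cold-stored organs the first leukocytes to enter after reperfusion are mostly neutrophils and monocytes, and lymphocytes are a minor population of the resting mouse heart.

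The lymphocyte genes had low signals in all grafts. Values are RMA signals on a log2 scale, in which 1 unit is a 2-fold difference. Means over the 5 grafts ran from 4.15 to 6.97, and none of the 35 lay above 7.22, the median of all 21789 probe sets. For an estimate of what an unused gene reads on these arrays, 1035 probe sets of olfactory receptors, genes of the nasal epithelium that the heart is not expected to use, were taken. Their means had a median of 4.22 and a 95th percentile of 5.89. Of the lymphocyte genes 18 did not exceed that percentile and 17 did (48.6%, against 69.7% of all probe sets). The 18 included Cd3d, Cd3g, Cd247, Cd2, Zap70, Eomes, Gzma, all 4 NK receptor genes, Cd79a and Ms4a1. Probe sets differ in how strongly they bind, so this comparison places a signal near the array's background and does not rank genes.

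Many of these values were also exactly equal between grafts. Of the 35 genes, 26 (74.3%) had the same value, to every deposited digit, on at least 2 grafts, against 53.8% of all probe sets, and 15 had the same value on 3 or more. Cd3d read 4.80 on all 5 grafts. The cause of the ties was not tested. For Cd3d, with no measured difference between grafts, the standard error (0.018) comes from the spread that limma shares across probe sets. Tied genes whose other grafts differ, such as Gzmb (SE 0.31), have measured differences in their standard error.

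In the signals as read, none of the 35 genes differed by 1.5-fold between I/R and non-I/R grafts. This covers the 18 genes that did not exceed the olfactory receptor percentile, where a change of a rare transcript may not register. The median log2 fold change, I/R minus non-I/R, was -0.02, against -0.01 over all probe sets. The median size of the difference, ignoring its sign, was 0.067, against 0.10 over all probe sets. By limma, 4 of the 35 genes passed an unadjusted p of 0.05, where 15% of all probe sets did. Cd28 and Ms4a1 were higher in the I/R grafts (background 7.64%) and Cd8a and Eomes were lower (background 7.35%). No gene of the set passed an adjusted p of 0.05 (adjusted p from 0.282 to 1), nor did any other probe set (0%), and the methods' t-test gave none after adjustment and 3 of the 35 before it. Groups did not overlap for 5 genes, with Cd28 and Ms4a1 above (15.8% of all probe sets) and Cd8a, Eomes and Tbx21 below (16.2% of all probe sets). These counts were not above the background shares. In whole tissue, fewer cells of a type and less RNA per cell cannot be told apart.

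**Figure D1:**
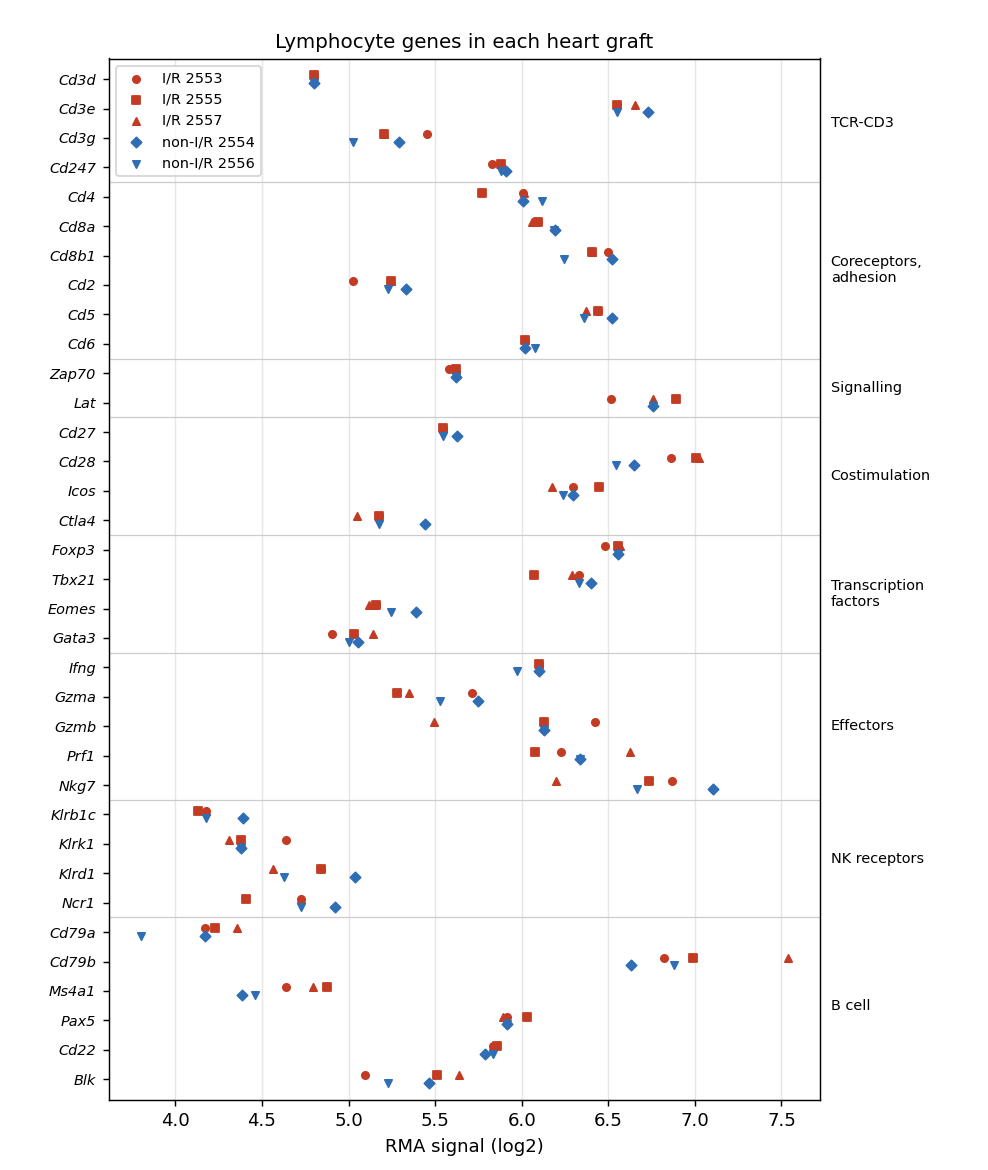
RMA signal (log2, x axis) of the 35 lymphocyte genes (y axis, grouped by role) in each graft, with I/R (n = 3) in red, non-I/R (n = 2) in blue and 1 symbol for each graft. The 3 I/R grafts lie apart from both non-I/R grafts for Cd28 and Ms4a1 (higher) and for Cd8a, Eomes and, by a margin too small to see, Tbx21 (lower), and Cd3d sits at 4.80 in every graft.

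The intervals show how large a change could have gone unseen. For 32 of the 35 genes the 95% interval of the difference from limma lay within 2-fold in either direction, with a median reach of 0.26 to either side on the log2 scale. The exceptions were Gzmb (down to 2-fold lower, and up to 0.78), Nkg7 (-1.07 to 0.50) and Cd79b (-0.38 to 1.10). For probe sets near background an interval covers the signal as read, and background can compress a change of a rare transcript. Tied values, which 26 of the 35 genes had, can also narrow an interval. Cd3d, with 1 value on all 5 grafts, had an interval of -0.05 to 0.05, which does not limit a change of its transcript.

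**Figure D2:**
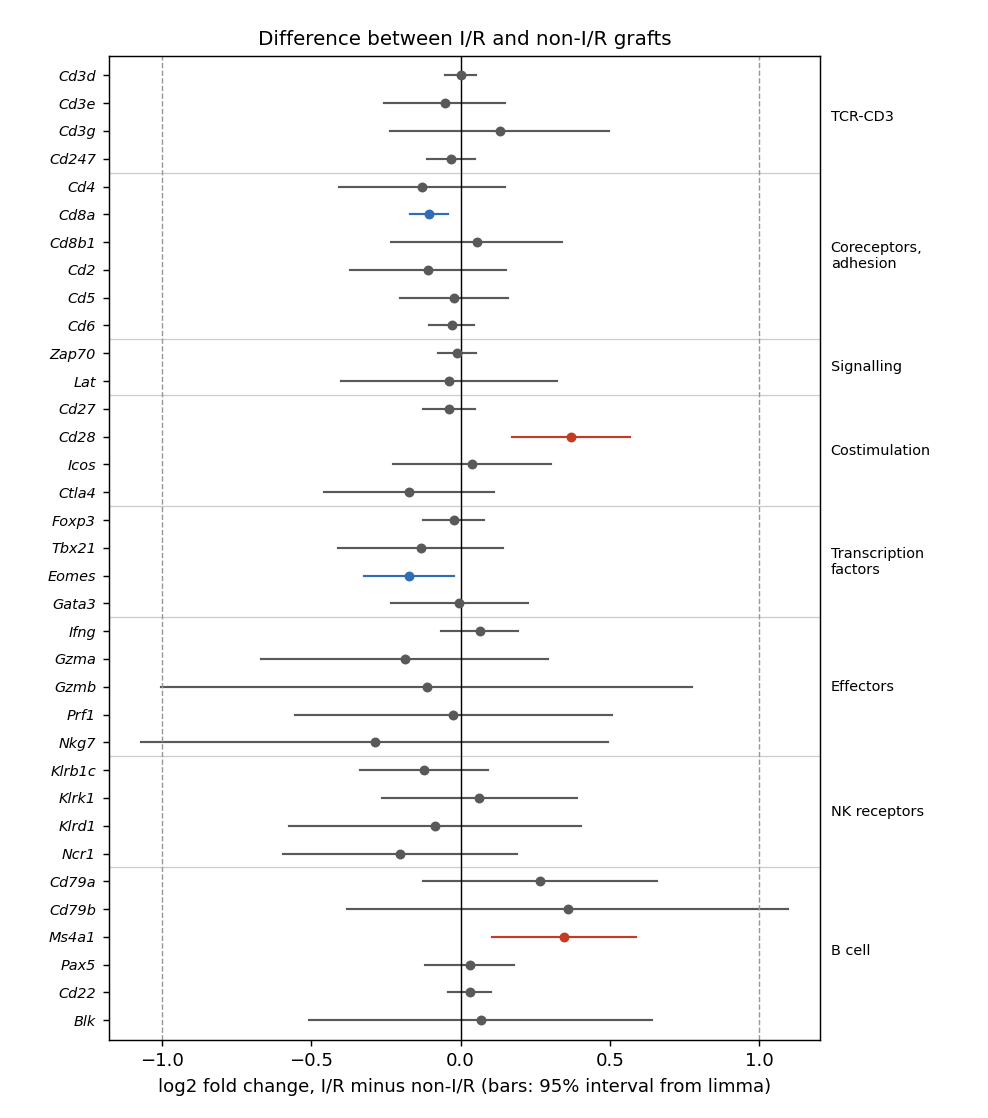
Log2 fold change of each lymphocyte gene, I/R minus non-I/R (x axis), with its 95% interval from limma (bars), by gene and role (y axis). Red and blue mark genes at an unadjusted p under 0.05 (Cd28 and Ms4a1 higher, Cd8a and Eomes lower), grey the others, and the dashed lines mark 2-fold.

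None of the CD3 chains, which carry the signal of the T cell receptor into the cell, passed the unadjusted test. Only Cd3e among them exceeded the olfactory receptor percentile. Cd3e, the chain most used to identify T cells, read 6.55, 6.55 and 6.65 in I/R grafts 2553, 2555 and 2557, against 6.73 and 6.55 in non-I/R grafts 2554 and 2556 (log2 fold change -0.05, SE 0.071). Its groups overlapped, and 2 I/R grafts shared a value with non-I/R 2556. Cd3g read 5.45, 5.21 and 5.21 in the I/R grafts, against 5.29 and 5.03 in the non-I/R grafts (0.13, SE 0.13). For Cd247, the zeta chain, the signals were 5.83, 5.88 and 5.88 in the I/R grafts and 5.91 and 5.88 in the non-I/R grafts (-0.03, SE 0.028). Just below the receptor act the kinase Zap70 and the adaptor Lat. Zap70 read 5.58 in I/R 2553 and 5.62 in every other graft of either group (-0.01, SE 0.023). Lat read 6.51, 6.89 and 6.76 in the I/R grafts, against 6.76 in both non-I/R grafts (-0.04, SE 0.13), so that the I/R grafts lay on both sides of the non-I/R value.

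The coreceptors differed by little, and 1 of them passed the unadjusted test. Cd8a, the coreceptor chain of cytotoxic T cells, read 6.10, 6.10 and 6.06 in the I/R grafts, against 6.19 and 6.19 in the non-I/R grafts. All I/R grafts lay below both non-I/R grafts, by 0.11 on the log2 scale (SE 0.023, unadjusted p = 0.0108, adjusted p = 0.284 from limma). That is 0.930-fold, and the call was lost when the arrays were centred on their medians (limma's unadjusted p of 0.105), with quantile normalization (0.121), with cyclic loess (0.169), among probe sets above the olfactory receptor percentile (0.0557) and without probe sets equal on all grafts (0.0576). The partner chain Cd8b1, which pairs with CD8a on most cytotoxic T cells, had 6.50, 6.41 and 6.41 in the I/R grafts and 6.52 and 6.24 in the non-I/R grafts (0.05, SE 0.10). The difference of Cd8b1 was -0.09 without non-I/R 2556, and the chains were not tested against each other. Cd4, the coreceptor of helper T cells, read 6.01, 5.77 and 6.01 in the I/R grafts, against 6.01 and 6.12 in the non-I/R grafts (-0.13, SE 0.098). The adhesion receptor Cd2 read 5.02, 5.24 and 5.24 in the I/R grafts, against 5.33 and 5.23 in the non-I/R grafts (-0.11, SE 0.093), with overlapping groups. For the scavenger receptor family members Cd5 and Cd6, which modulate T cell receptor signals, the differences were -0.02 (SE 0.063) for Cd5 and -0.03 (SE 0.027) for Cd6.

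Cd28, the receptor that gives T cells the second, costimulatory signal for activation, had the largest difference of the set. It read 6.86, 7.01 and 7.03 in the I/R grafts, against 6.65 and 6.54 in the non-I/R grafts. Every I/R graft lay above both non-I/R grafts, and the 5 values were all distinct. The log2 fold change was 0.37 (SE 0.070, 95% interval 0.17 to 0.57), or 1.29-fold, with an unadjusted p of 0.00706 and an adjusted p of 0.282 from limma. It passed the unadjusted threshold in all 17 alternatives that measured it, at log2 fold changes of 0.32 to 0.42. Its neighbours in the genome did not pass the test. Ctla4, the inhibitory receptor for the same ligands, read 5.17, 5.18 and 5.05 in the I/R grafts, against 5.44 and 5.18 in the non-I/R grafts (-0.17, SE 0.10). Icos, the inducible costimulator next to it, read 6.30, 6.45 and 6.17 in the I/R grafts, against 6.30 and 6.24 in the non-I/R grafts (0.04, SE 0.094). Differences between Cd28 and these genes were not tested. Cd27, a costimulatory receptor of the TNF receptor family, read 5.55 in all 3 I/R grafts, against 5.63 and 5.55 in the non-I/R grafts (-0.04, SE 0.031).

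All 4 lineage transcription factors had slightly lower means in the I/R grafts, and 1 passed the unadjusted test. Eomes, the T-box factor of NK cells and memory CD8 T cells, read 5.16, 5.16 and 5.12 in the I/R grafts, against 5.39 and 5.25 in the non-I/R grafts. The groups did not overlap, with a log2 fold change of -0.17 (SE 0.053, unadjusted p = 0.0330, adjusted p = 0.306 from limma). The probe set did not exceed the olfactory receptor percentile. The unadjusted call was lost with the methods' t-test (unadjusted p of 0.0543), with limma after cyclic loess (0.0622) and without tied probe sets (0.157). It was also lost without any 1 of the I/R grafts, at limma's unadjusted p of 0.0817 (2553), 0.0826 (2555) and 0.0983 (2557). Tbx21, the related factor T-bet of type 1 helper and NK cells, read 6.33, 6.07 and 6.29 in the I/R grafts, against 6.40 and 6.33 in the non-I/R grafts (-0.13, SE 0.098). I/R 2553 and non-I/R 2556 were equal to the second decimal. Foxp3, which defines regulatory T cells, read 6.48, 6.56 and 6.57 in the I/R grafts and 6.56 in both non-I/R grafts (-0.02, SE 0.036). Gata3, the factor of type 2 helper cells, read 4.91, 5.03 and 5.14 in the I/R grafts, against 5.05 and 5.01 in the non-I/R grafts (-0.0038, SE 0.081).

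Among the 9 genes for killing and for NK cell receptors, 7 had lower and 2 had higher means in the I/R grafts, the median log2 fold change was -0.11, and no gene passed the unadjusted test or had groups that did not overlap. Nkg7, a granule membrane protein of cytotoxic cells, read 6.87, 6.73 and 6.20 in the I/R grafts, against 7.11 and 6.66 in the non-I/R grafts (-0.29, SE 0.28). Gzma, the tryptase granzyme A, read 5.71, 5.28 and 5.35 in the I/R grafts and 5.75 and 5.53 in the non-I/R grafts (-0.19, SE 0.17). Gzmb, granzyme B, which cleaves after aspartate and activates caspases, had the widest spread of the set, with 6.42, 6.13 and 5.49 in the I/R grafts, against 6.13 in both non-I/R grafts (-0.11, SE 0.31). I/R 2553 was its highest graft and I/R 2557 its lowest. The pore former Prf1 was instead highest in I/R 2557, with 6.23, 6.08 and 6.63 in the I/R grafts and 6.33 in both non-I/R grafts (-0.02, SE 0.19). Ifng, the main cytokine of NK cells and type 1 T cells, read 6.10 in all 3 I/R grafts, against 6.10 and 5.97 in the non-I/R grafts (0.06, SE 0.046).

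Among NK receptors, Ncr1 (NKp46), the activating receptor that identifies NK cells, read 4.72, 4.41 and 4.72 in the I/R grafts, against 4.92 and 4.72 in the non-I/R grafts (-0.20, SE 0.14). Klrb1c (NK1.1), the marker of NK cells in C57BL/6 mice, read 4.17, 4.13 and 4.17 in the I/R grafts, against 4.39 and 4.17 in the non-I/R grafts (-0.12, SE 0.076). In both genes non-I/R 2554 was the highest graft, and values of the other grafts were shared across the groups. The lectin receptors differed by -0.09 (SE 0.17) for Klrd1 (CD94) and by 0.06 (SE 0.12) for Klrk1 (NKG2D). None of the 4 exceeded the olfactory receptor percentile.

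Among several short words searched, 1 was found in the promoters of most effector and NK genes with a window. The choice of genes did not use the words, which were chosen after the array values had been seen. RefSeq promoter windows (GRCm38.p6, 250 bases before to 50 after the start) were given for 26 of the 36 genes. The core of the Runx binding motif, TGTGGT on either strand, was found for 10 of the 26 and for 7 of 8 effector and NK genes with a window (Gzma, Gzmb, Prf1, Nkg7, Klrb1c, Klrk1 and Ncr1, but not Ifng), and in 16.8% of all 32851 windows. The T cell signalling genes Lck, Lat and Zap70 also had it. The other words searched on both strands were the Ets core AGGAAG (14 of the 26 genes and 35.4% of all windows), the E-box CAGCTG (7 and 16.3%), the EBF core CCCNNGGG (4 and 13.7%), TATAAA (3 and 13.6%), the T-box element AGGTGTGA (1, Nkg7, and 1.28%) and the octamer ATGCAAAT (0 and 1.74%). A gene was counted if any of its windows held the word, while the percentages are of single windows, so they are not in like units. A match describes the letters and is not evidence of binding, and none of the 9 measured genes with the Runx core passed the unadjusted test. Windows of the effector genes with the widest spread and with the largest difference are shown, with the Runx core or its reverse complement ACCACA in capitals. They lie at chr14:56262285-56262584 on the minus strand (Gzmb, with 2 matches) and chr7:43436888-43437187 on the plus strand (Nkg7, with 1 match).
Gzmb: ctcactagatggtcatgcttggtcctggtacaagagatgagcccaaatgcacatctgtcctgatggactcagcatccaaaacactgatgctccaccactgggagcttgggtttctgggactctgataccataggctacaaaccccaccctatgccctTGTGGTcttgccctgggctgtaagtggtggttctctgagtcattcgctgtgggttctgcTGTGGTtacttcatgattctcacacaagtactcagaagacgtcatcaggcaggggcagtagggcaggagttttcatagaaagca
Nkg7: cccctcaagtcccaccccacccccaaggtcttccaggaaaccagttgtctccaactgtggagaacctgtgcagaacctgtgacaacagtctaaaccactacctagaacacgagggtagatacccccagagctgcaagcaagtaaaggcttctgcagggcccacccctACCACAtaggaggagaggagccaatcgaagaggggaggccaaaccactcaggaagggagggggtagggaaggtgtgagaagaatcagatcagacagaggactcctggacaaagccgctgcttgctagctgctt

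B cell genes had higher means in the I/R grafts for all 6 genes, with a median log2 fold change of 0.17. Only 1 of the 6 passed the unadjusted test, where 7.64% of all probe sets passed it as higher. Of the 6 genes, 2 exceeded the olfactory receptor percentile (Cd79b and Pax5), while Cd79a, Ms4a1, Cd22 and Blk did not. Without non-I/R 2556 the median was 0.067, and without I/R 2553 it was 0.27. The difference of Blk changed sign without I/R 2557 or without non-I/R 2556, and that of Pax5 without I/R 2555. Ms4a1 (CD20), a surface protein of mature B cells, read 4.64, 4.88 and 4.80 in the I/R grafts, against 4.39 and 4.46 in the non-I/R grafts. Every I/R graft lay above both non-I/R grafts, at a log2 fold change of 0.35 (SE 0.085, unadjusted p = 0.0168, adjusted p = 0.286 from limma), on a probe set that did not exceed the olfactory receptor percentile. The unadjusted call was lost without I/R 2557 (limma's unadjusted p of 0.0611) and without either non-I/R graft (0.0989 for 2554, 0.0628 for 2556). Cd79b, a signalling chain of the B cell receptor, read 6.82, 6.99 and 7.54 in the I/R grafts, against 6.63 and 6.88 in the non-I/R grafts (0.36, SE 0.26). I/R 2557 stood above the other grafts, and non-I/R 2556 lay between the I/R values. Its partner Cd79a read 4.17, 4.23 and 4.36 in the I/R grafts, against 4.17 and 3.80 in the non-I/R grafts (0.27, SE 0.14). Non-I/R 2556 was the lowest graft, and I/R 2553 and non-I/R 2554 had the same value. Pax5, the factor that commits cells to the B lineage, the inhibitory lectin Cd22 and the Src family kinase Blk differed by 0.03 (SE 0.053), 0.03 (SE 0.025) and 0.07 (SE 0.20) on the log2 scale.

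Of 7 pairs of adjacent genes, Cd5 and Cd6 had differences of the same sign. In the RefSeq gene order, these pairs have no protein-coding gene between them. On chromosome 9, Cd3g, Cd3d and Cd3e had log2 fold changes of 0.13, 0.00 and -0.05, and on chromosome 1, Cd28, Ctla4 and Icos had 0.37, -0.17 and 0.04. On chromosome 6, Cd8b1 and Cd8a had 0.05 and -0.11, and Klrd1 and Klrk1 had -0.09 and 0.06. Cd5 and Cd6, on chromosome 19, had -0.02 and -0.03.

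Wider lists of genes used by the same cells gave calls that were read against the background of 7.64% of all probe sets higher and 7.35% lower. Of 23 further T cell genes measured, 1 was higher and 0 were lower at the unadjusted p, with a median log2 fold change of 0.00. The one was Ptpn22, a phosphatase of T cells that other leukocytes also use, which read 6.55, 6.82 and 6.18 in the I/R grafts against 5.91 and 5.79 in the non-I/R grafts (0.67, SE 0.22). Of 17 further NK and cytotoxic genes, 1 was higher and 1 was lower, with a median of -0.03. Cd244a (2B4), a receptor of NK cells and of some myeloid cells, read 7.24, 7.67 and 7.50 in the I/R grafts against 6.71 and 6.58 in the non-I/R grafts (0.82, SE 0.15), and the chemokine Xcl1 had a log2 fold change of -0.28 (SE 0.085). Among 19 further B cell and plasma cell genes, 2 were higher and 0 were lower, with a median of 0.00. They were Btk, a kinase of B and myeloid cells (0.67, SE 0.18), and the leukocyte tetraspanin Cd37 (0.73, SE 0.24). Ptpn22, Cd244a, Btk and Cd37 are all known from myeloid cells as well, and which cells carried them was not tested. B cell genes such as Cr2, Fcer2a, Spib and Tnfrsf17 had 1 value on all 5 grafts.

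Among signals that sustain or attract lymphocytes, 1 gene passed the unadjusted test, and the chemokine list went both ways. Il15, the cytokine on which NK cells and memory CD8 T cells depend, read 8.01, 7.14 and 7.23 in the I/R grafts, against 10.37 and 9.58 in the non-I/R grafts (-2.52, SE 0.41, adjusted p = 0.282 from limma). Cxcl9, an interferon-induced chemokine for T and NK cells with the receptor CXCR3, read 7.94, 6.99 and 6.59 in the I/R grafts, against 9.08 and 8.08 in the non-I/R grafts, and did not pass the unadjusted test (-1.41, SE 0.56, unadjusted p = 0.0695 from limma). Cxcl10, which binds the same receptor, differed by 0.36 (SE 0.38). The smallest p of that list belonged to Cxcr4, the receptor for CXCL12, which read 8.91, 9.13 and 8.42 in the I/R grafts, against 8.25 and 7.97 in the non-I/R grafts (0.71, SE 0.26, unadjusted p = 0.0529 from limma). All I/R grafts lay above both non-I/R grafts. Cxcl13, which attracts B cells, had overlapping groups, with 8.66, 6.75 and 7.08 in the I/R grafts against 10.81 and 8.37 in the non-I/R grafts (-2.09, SE 1.05). Of the 12 measured chemokines and homing receptors for lymphocytes, 5 had higher and 7 had lower means, and none passed the unadjusted test (median -0.03). Of 8 genes of the interleukin-15 and common gamma chain system, 1 passed it, Il15, where 15% of all probe sets did.

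Markers of other leukocytes went different ways. All 10 pan-leukocyte genes had higher means in the I/R grafts, 5 of the 10 passed the unadjusted test and none the adjusted one, and the median log2 fold change was 0.56. Over all probe sets 15% passed the unadjusted test, 7.64% as higher and 7.35% as lower in the I/R grafts. Ptprc (CD45), carried by all nucleated blood cells, read 9.54, 9.87 and 9.55 in the I/R grafts, against 9.14 and 9.04 in the non-I/R grafts (0.56, SE 0.13), and Lcp1 and Coro1a, which organise actin in leukocytes, had 0.56 (SE 0.078) and 0.85 (SE 0.25). Of 11 neutrophil markers 10 had higher means, with a median of 0.91, and 4 were called higher and 1, Lcn2, lower. Mean deviations of the neutrophil list ran from -0.05 to 0.84 in the I/R grafts and from -0.68 to -0.29 in the non-I/R grafts. Over the 16 T cell genes they ran from -0.01 to 0.01 in the I/R grafts and from -0.04 to 0.05 in the non-I/R grafts, over the 9 effector and NK genes from -0.14 to 0.10 and from -0.03 to 0.15, and over the 6 B cell genes from -0.07 to 0.19 and from -0.13 to -0.09. Signals of the T cell genes were dim (means 4.80 to 6.82) and tied for 15 of the 16. Those of the neutrophil markers were bright (8.23 to 12.37) and untied. A small span of dim, tied signals does not measure a small change in cells. The 10 macrophage and monocyte markers had a median log2 fold change of -0.29 with 1 called higher, Ccr2, and the 8 dendritic cell markers one of 0.01 with none called. All 8 cardiomyocyte markers, which identify the tissue as heart muscle, had lower means (median -0.52, 7 called), and their deviations ran from -0.33 to -0.01 in the I/R grafts and from 0.26 to 0.41 in the non-I/R grafts. The part of these other cell types in the lymphocyte values was not tested.

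**Figure D3:**
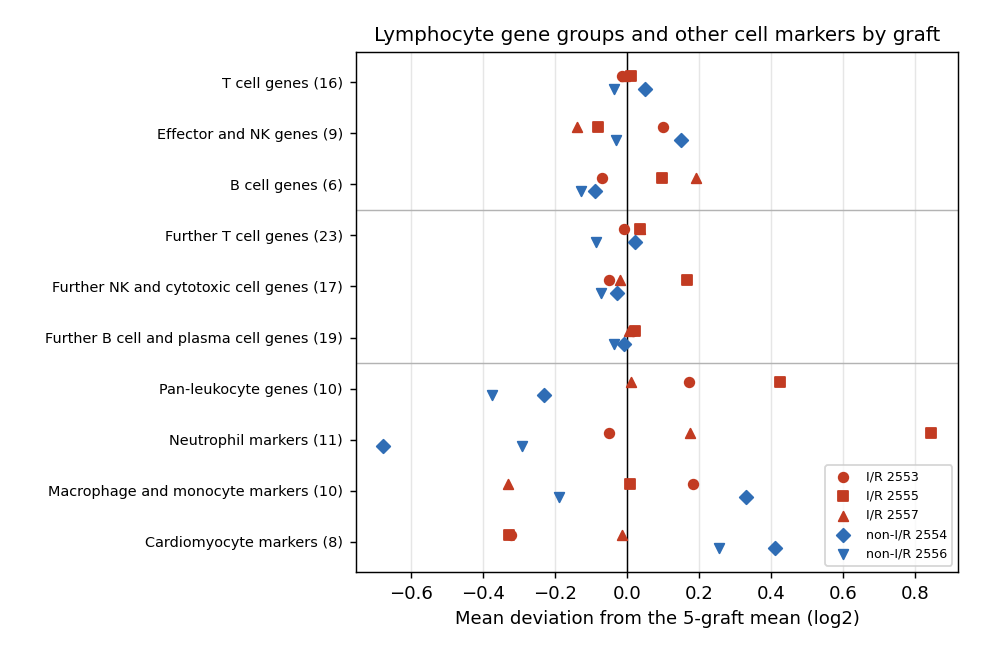
Mean deviation of each gene group from its mean over the 5 grafts (log2, x axis), for the lymphocyte genes, the wider lymphocyte lists and markers of other cells (y axis, number of measured genes in parentheses), as 1 point for each graft (I/R in red, non-I/R in blue). T cell genes stay between -0.04 and 0.05 in every graft, while neutrophil markers run from -0.68 to 0.84. Of the 16 T cell genes 15 had tied values and 9 exceeded the olfactory receptor percentile. All 11 neutrophil markers exceeded it and 0 were tied, so the spans do not compare changes in the cells.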

How the data were processed

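Gene expression was measured on Affymetrix Mouse Gene 1.0 ST arrays, 1 for each of 5 grafts. The authors deposited log2 values made with Partek and RMA (versions not given in the sources used here), which corrects background, equalises the arrays and summarises each probe set. By putting arrays on a common distribution, RMA may mask a shift that most genes have in common. The log2 values of the 35556 probe sets were used as deposited. Groups came from the source field of the labels, and nothing there says which animals the grafts came from, so a p-value covers only the spread among these 5 grafts, which may be technical.

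Gene names came from the platform annotation, and symbols were brought up to date by gene ID (21698 of 21789 found in a GRCm38.p6 table). The 1621 probe sets with several symbols and the 12146 not listed were left out. No genome build is given for the arrays. I/R and non-I/R grafts were compared in R 4.3.3 by lmFit and eBayes of limma 3.58.1 (prior df of 0.824) over all 21789 probe sets, with Benjamini-Hochberg adjustment, after testing on simulated data. The unadjusted p of 0.05 follows the study, which also set a fold change limit for its gene lists. No fold change limit was applied to the calls counted here. With 3 grafts against 2, the smallest two-sided exact permutation p is 0.1, so no such test could pass. The number of arrays limits the precision, and no depth applies.

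Every gene of the set is named; values by graft are given for genes at the unadjusted p, for the 2 with the largest difference in each role, and for defining genes, and from other lists at most 3 genes with the smallest p, with Il15, Cxcl9, Cxcl10 and Ptprc. The members and lists were chosen with earlier results of these data known. Promoter windows came from RefSeq, and the promoter words were chosen after the array values had been seen. Plots were drawn with matplotlib 3.10.9. The study's miRNA arrays, PCR and histology were not used here.

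The alternatives were limma with a trend, robust limma, array weights, the methods' t-test, median centring, quantile normalization, cyclic loess, filters on dim and on tied probe sets, a fit over all probe sets, the mean of a gene's probe sets and leaving out each graft. Leaving out probe sets equal on all arrays was chosen after seeing the data.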

Additional observations from a re-analysis of the deposited data

How the results depend on the processing

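Across 18 alternatives, 530 of 550 values of single lymphocyte genes kept their side of the unadjusted threshold, 14 lost the call and 6 gained it, and no called value changed sign. Of 35 genes, 4 were called with all grafts, and the count ran from 2 to 6 with 1 graft left out (2 without I/R 2557, and 6 without non-I/R 2554 or without non-I/R 2556). It was 2 with cyclic loess, 2 of 9 genes without tied probe sets and 1 of 17 genes above the olfactory receptor percentile, and none of the genes was left above the median signal of all probe sets. Cd6, Cd79a and Ifng passed only without non-I/R 2554, and Cd27, Ctla4 and Klrb1c only without non-I/R 2556, among the settings run. Genes with groups that do not overlap numbered 5 with all grafts and from 6 to 19 with 1 left out, which smaller groups make easier. Without tied probe sets the median log2 fold change was 0.35 over the 3 B cell genes left and 0.37 for the 1 T cell gene left, Cd28. The count over all 21789 probe sets was 3265, against 2014 by the methods' t-test, and from 1898 to 4147 with 1 graft left out (the lowest without 2554, the highest without 2556, both non-I/R, and 2065 without I/R 2557). Leaving out the 757 probe sets equal on all grafts was added after the data had been seen. No adjusted call was made for these genes in any setting. No paired analysis was possible because the labels give no pairing of grafts.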
